A study of Mus musculus with 37 samples.

Results

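The 36 genes described here encode proteins that carry the signal of opioid receptors, and of other receptors coupled to inhibitory G proteins, into the cell. They comprise 6 alpha subunits and 8 beta and gamma subunits of G proteins, 7 adenylyl cyclases, a group of 7 genes that holds the protein kinase A subunits and Creb1, 5 genes of RGS proteins (regulators of G protein signalling) and arrestins, and 3 subunits of GIRK channels, the potassium channels opened by G proteins. They were taken by gene symbol from a table of 56980 genes. All 36 were found, and all 36 were among the 19332 genes with enough reads to be tested.

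In its resting state an alpha subunit holds GDP and is bound to a beta-gamma pair. A receptor that binds its ligand makes the alpha subunit exchange GDP for GTP, and the parts separate. Alpha subunits of the Gi/o class lower the activity of adenylyl cyclase, the Gs alpha subunit raises it, and freed beta-gamma pairs open GIRK channels, which quietens neurons. Cyclic AMP from the cyclases releases the catalytic subunits of protein kinase A from their regulatory subunits, and the kinase phosphorylates targets such as the transcription factor CREB. RGS proteins hasten the return to the GDP form, and arrestins uncouple phosphorylated receptors. A rise in cyclic AMP signalling after repeated opioid exposure is a textbook feature of this pathway.

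Polyadenylated RNA was prepared from wild-type C57BL/6J mice, all of them male. The labels give brain as the tissue with all cell types, and medial prefrontal cortex appears in the title of the series. Adolescents started treatment on postnatal day 25 and adults on postnatal day 55. Mice of either age drank water or received oral antibiotics, which the labels do not name further, and were injected subcutaneously with saline or with morphine at 15 mg/kg over 5 days. The 8 groups had these numbers of libraries in use. Adolescents on water had 5 with saline and 5 with morphine, and adolescents on antibiotics had 3 with saline and 5 with morphine. Adults on water had 3 with saline and 5 with morphine, and adults on antibiotics had 5 with saline and 4 with morphine. The labels do not state that each library is a separate animal, so the p-values measure the spread between these libraries only.

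These 35 libraries held 10630727 to 31560468 counts, with a median of 15910823, and 2 further libraries of 25165 and 58764 counts were left out. All 7 markers of cortical excitatory neurons had reads in every library, with a summed level of 4934 to 8858 CPM, the count scaled to library size. Adolescent water saline replicate 1 stood apart. Its 10 striatal neuron markers summed to 913 CPM, against 105 to 126 CPM in the other 17 adolescent libraries and 88.5 to 112 CPM in the adult ones, and its 8 myelin markers summed to 20250 CPM, against 1245 to 6745 CPM in the other adolescents. It also had the lowest sum of cortical excitatory markers, 4934 CPM, where the other adolescents had 7268 to 8858 CPM. Where leaving this library out changed a call or moved a called value by over 1.5 times, the value or the count of members without it is given. In addition, 7 adolescent libraries held between 518 and 1140 counts of pancreatic islet hormone genes.

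Levels of different genes were compared per kilobase of exon, with the exons of all annotated transcripts of a gene merged. The order of genes and the shares within families depend on this length, which was 12692 bases for Gnb4, 13742 for Creb1 and 11186 for Gnas. Lengths of the transcripts present were not measured. Prkar1b, a regulatory subunit of protein kinase A, had the highest mean level over all 35 libraries at 269 CPM per kilobase. It was followed by Rgs4 at 162 CPM per kilobase, Gnb1 at 158, Prkar1a at 158, Gng3 at 131 and Gnas, the Gs alpha subunit, at 108. The lowest levels were those of the beta subunit Gnb4, at 2.17 CPM per kilobase, the cyclase Adcy8 at 2.71, Creb1 at 3.91 and the GIRK subunit Kcnj6 at 4.09. Levels also differed within the beta subunits, with Gnb1 at 158 and Gnb4 at 2.17 CPM per kilobase.

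**Figure D1:**
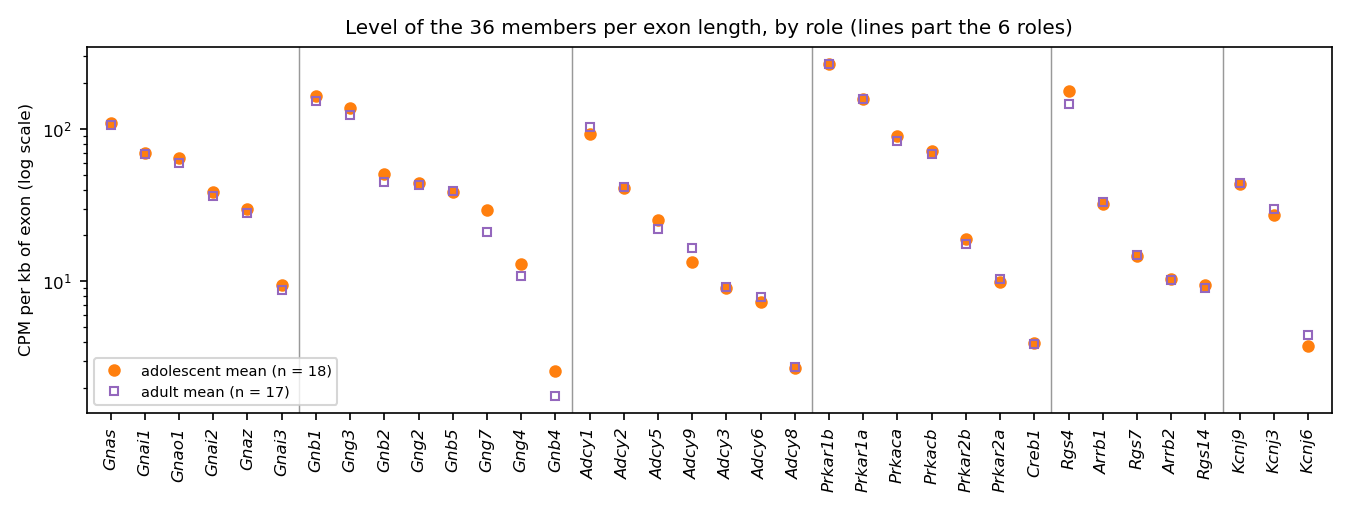
Mean level of each of the 36 members in CPM per kilobase of exon (vertical axis, log scale) in 18 adolescent libraries (filled circles) and 17 adult libraries (open squares), sorted within the 6 roles. Prkar1b is highest, at 269 in adolescents and 268 in adults, and Gnb4 is lowest, at 2.56 and 1.76.

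Expressed as shares of these per-kilobase levels, Gnb1 made up 64.1% ± 1.86 (SD, n = 18) of the 4 beta subunits in adolescents and 63.9% ± 0.898 (SD, n = 17) in adults. Adcy1, a cyclase stimulated by calcium and calmodulin, made up 48.6% ± 3.69 of the 7 cyclases in adolescents and 50.7% ± 1.02 in adults. Among the 3 GIRK subunits, Kcnj9 accounted for 58.6% ± 1.28 in adolescents and 56.1% ± 1.27 in adults, Kcnj3 for 36.4% ± 1.01 and 38.2% ± 1.24, and Kcnj6 for 5.03% ± 0.57 and 5.67% ± 0.715. These shares are a description and were not tested.

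The comparison of adults with adolescents, averaged over the 4 treatments, asks how age alters the pathway. Transcripts of 3 alpha subunits, 6 beta and gamma subunits, 3 kinase subunits and Rgs4 were lower in adults, while those of 3 cyclases and 2 GIRK subunits were higher. In edgeR's quasi-likelihood test, adjusted over all genes tested, 18 of the 36 members passed the threshold of 0.05. Of these 5 were higher in adults, against 9.11% of all genes tested, and 13 were lower, against 11.2% of all genes. In both directions together 20.3% of all genes passed. Among the 7557 genes with a mean level at or above 22.1 CPM, that of the lowest member Adcy8, 32.3% passed. The median log2 fold change was -0.04 over the members and 0.0035 over all genes tested. The ranges of the ages overlapped for every member.

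**Figure D2:**
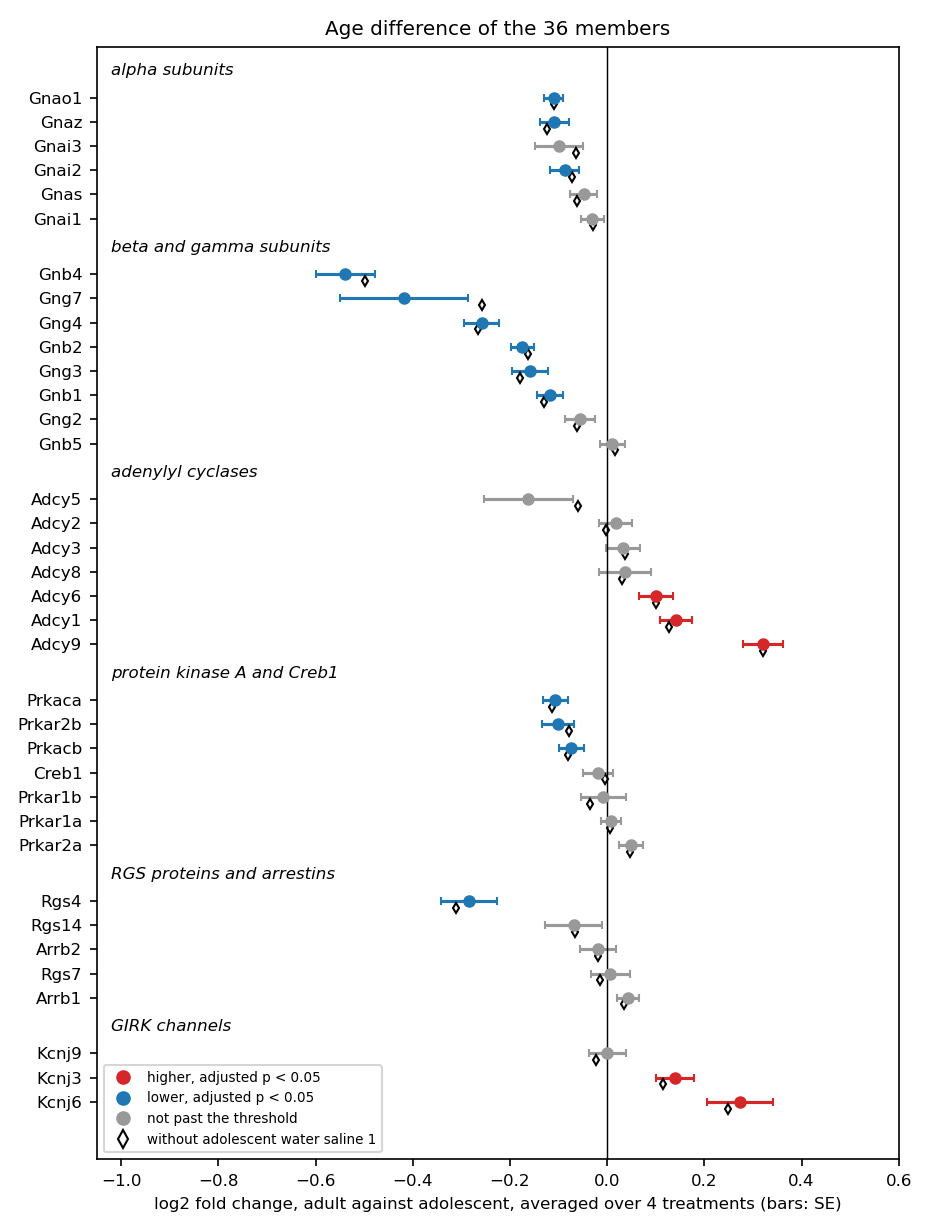
Log2 fold change of adults against adolescents, averaged over the 4 treatments, for the 36 members by role (circles, horizontal axis), with bars of 1 SE and colours for the result of edgeR's test. Diamonds show the same without adolescent water saline replicate 1. All 6 coloured points among beta and gamma subunits lie left of 0, and the 3 among cyclases and 2 among GIRK channels lie right of it.

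Among alpha subunits, 0 of 6 were higher in adults and 3 were lower, against 9.11% and 11.2% of all genes. Gnao1, the Go alpha subunit and the main Go protein of brain, was at 643 to 759 CPM in adolescents (median 713) and at 594 to 699 CPM in adults (median 669). Of the 18 adolescent libraries, 14 lay above the highest adult. This gave -0.11 on the log2 scale, with an SE of 0.02 (adjusted p = 0.000139). Gnaz, the Gz alpha subunit, which also inhibits cyclases, was at 84.4 to 118 CPM in adolescents (median 110) and at 92.1 to 109 CPM in adults (median 101), with a log2 fold change of -0.11 (adjusted p = 0.00902). The lowest adolescent value is that of water saline replicate 1, and the other 17 adolescents started at 98 CPM.

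Gnai2, an inhibitory alpha subunit found in many cell types, was at 129 to 177 CPM in adolescents (median 144) and at 124 to 160 CPM in adults (median 134). Its log2 fold change of -0.09 (adjusted p = 0.0367) stayed past the threshold in 17 of the 35 fits that each left out 1 library. Gnai3, a related inhibitory subunit, was at 25.3 to 42.4 CPM in adolescents (median 30.8) and at 24.9 to 34.0 CPM in adults (median 29.1) and did not pass (log2 fold change -0.10, adjusted p = 0.16). Gnai1 and Gnas did not pass either, with log2 fold changes of -0.03 and -0.05. Without adolescent water saline replicate 1, Gnas was past the threshold at -0.06 (adjusted p = 0.0133).

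Beta and gamma subunits held the most members past the threshold: 6 of 8 were lower in adults, against 11.2% of all genes, and 0 were higher. The roles hold 3 to 8 genes each, and differences between roles were not tested. Gnb4, a beta subunit of low abundance, had the largest difference of all members. It was at 24.8 to 53.9 CPM in adolescents (mean 32.6 ± 6.56 CPM, SD, n = 18) and at 19.4 to 29.0 CPM in adults (mean 22.4 ± 2.75 CPM, SD, n = 17). Of the 17 adults, 14 were below the lowest adolescent, and 13 of 18 adolescents were above the highest adult. The difference was -0.54 on the log2 scale, with an SE of 0.06 (adjusted p = 1.41e-07), and -0.50 without adolescent water saline replicate 1, which had the highest value.

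Gnb2 was at 155 to 196 CPM in adolescents (median 169) and at 146 to 162 CPM in adults (median 152), with 12 of 17 adults below the lowest adolescent. It fell by 0.17 on the log2 scale, with an SE of 0.02 (adjusted p = 1.42e-06). Gnb1, the most abundant beta subunit, was at 579 to 748 CPM in adolescents (median 708) and at 593 to 696 CPM in adults (median 653), and fell by 0.12 on the log2 scale (adjusted p = 0.00204). Gnb5 differs from the other beta subunits in that it pairs with RGS proteins of the Rgs7 family. It was at 107 to 131 CPM in adolescents and 113 to 134 CPM in adults and did not pass (log2 fold change 0.01, adjusted p = 0.82).

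Gamma subunits anchor the beta-gamma pair to the membrane. Gng4 was at 36.5 to 55.1 CPM in adolescents (median 42.8) and at 32.4 to 40.04 CPM in adults (median 36.5), and 15 of 18 adolescents lay above the highest adult. It fell by 0.26 on the log2 scale (SE 0.04, adjusted p = 2.55e-06). Gng3, the most abundant gamma subunit, was at 157 to 247 CPM in adolescents (median 233) and at 189 to 223 CPM in adults (median 204), with a log2 fold change of -0.16 (adjusted p = 0.00229). Gng2 did not pass (log2 fold change -0.06, adjusted p = 0.22).

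The value of Gng7, a gamma subunit abundant in striatum, depended on 1 library. Adolescent water saline replicate 1 was at 381 CPM, and the other 17 adolescents were at 82.3 to 112 CPM, against 72.0 to 89.8 CPM in adults. With that library the log2 difference was -0.42, with an SE of 0.13 (adjusted p = 0.0249), and without it -0.26, with an SE of 0.03 (adjusted p = 7.38e-08). With striatal and myelin marker scores as covariates it was -0.16 (adjusted p = 0.000294). Gng7 was thus lower in adults in each of these fits, by different amounts.

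Adenylyl cyclases went the other way, with 3 of 7 higher in adults, against 9.11% of all genes, and 0 lower. Adcy9, a widely expressed cyclase that is insensitive to forskolin, was at 55.0 to 98.0 CPM in adolescents (mean 69.2 ± 11 CPM, SD, n = 18) and at 72.3 to 100.6 CPM in adults (mean 85.4 ± 8.34 CPM, SD, n = 17). Of the 18 adolescents, 13 were below the lowest adult. Its log2 fold change of 0.32 (SE 0.04, adjusted p = 6.88e-07) was the largest increase among the members. Adcy1 was at 867 to 1410 CPM in adolescents (median 1169) and at 1186 to 1383 CPM in adults (median 1277), and rose by 0.14 on the log2 scale (adjusted p = 0.00214).

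Adcy6, a cyclase inhibited by calcium, was at 43.8 to 55.8 CPM in adolescents (median 49.6) and at 47.1 to 59.6 CPM in adults (median 52.5), with a log2 fold change of 0.10 (adjusted p = 0.0344) that passed in 28 of the 35 fits without 1 library. Adcy5, the main cyclase of striatal neurons, was at 453 CPM in adolescent water saline replicate 1, at 149 to 188 CPM in the other adolescents and at 147 to 175 CPM in adults. It did not pass with that library (log2 fold change -0.16, adjusted p = 0.22) or without it (-0.06, adjusted p = 0.10). Adcy2, Adcy3 and Adcy8 did not pass, with log2 fold changes of 0.02 to 0.04.

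In the protein kinase A group, 0 of 7 genes were higher in adults and 3 were lower, against 9.11% and 11.2% of all genes. Prkaca, a catalytic subunit, was at 198 to 243 CPM in adolescents (median 224) and at 193 to 221 CPM in adults (median 209), and fell by 0.11 on the log2 scale, with an SE of 0.03 (adjusted p = 0.00246). The second catalytic subunit, Prkacb, was at 537 to 664 CPM in adolescents (median 637) and at 562 to 633 CPM in adults (median 601). Its difference of -0.07 (adjusted p = 0.0433) passed in 8 of the 35 fits without 1 library and in 4 of 8 other alternatives, and so lies at the threshold.

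Prkar2b, a regulatory subunit, was at 58.3 to 92 CPM in adolescents (median 68.2) and at 57.7 to 69.7 CPM in adults (median 65). Its log2 fold change was -0.10 (adjusted p = 0.0238). The highest value is again that of adolescent water saline replicate 1, without which the log2 fold change was -0.08 (adjusted p = 0.0259). With the striatal and myelin scores as covariates, Prkar2b did not pass (-0.06, adjusted p = 0.10). Prkar2a was at 58.1 to 67.5 CPM in adolescents and 61.0 to 73.5 CPM in adults and did not pass (log2 fold change 0.05, adjusted p = 0.16). Prkar1a, Prkar1b and Creb1 did not pass, with log2 fold changes of 0.01, -0.01 and -0.02.

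Rgs4, an RGS protein of cortical neurons that acts on Gi/o and Gq alpha subunits, was the 1 changed gene of the 5 RGS and arrestin genes. It was at 362 to 641 CPM in adolescents (median 550) and at 342 to 517 CPM in adults (median 461), and 13 of 18 adolescents were above the highest adult. Rgs4 fell by 0.29 on the log2 scale, with an SE of 0.06 (adjusted p = 0.00065), and the difference was -0.31 without adolescent water saline replicate 1, the lowest adolescent library. Arrb1, the beta-arrestin with the higher level per kilobase, was at 307 to 383 CPM in adolescents and at 348 to 400 CPM in adults (log2 fold change 0.04, adjusted p = 0.17). Arrb2 was at 27.0 to 34.0 CPM and 25.7 to 32.3 CPM, and Rgs14 at 22.6 to 50.8 CPM and 33.4 to 44.1 CPM, in adolescents and adults. Neither passed (adjusted p = 0.77 and 0.43), and Rgs7 did not pass either (adjusted p = 0.93).

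Of the GIRK channel genes, 2 of 3 were higher in adults, against 9.11% of all genes. Kcnj6, which encodes GIRK2, was at 19.1 to 37.8 CPM in adolescents (median 28.9) and at 26.5 to 43.2 CPM in adults (median 34.1), and rose by 0.27 on the log2 scale, with an SE of 0.07 (adjusted p = 0.00458). Kcnj3, which encodes GIRK1, was at 90.9 to 157 CPM in adolescents (median 144) and at 140 to 167 CPM in adults (median 159), and 10 of 17 adults were above the highest adolescent. It rose by 0.14 on the log2 scale (SE 0.04, adjusted p = 0.0113). Kcnj9, which encodes GIRK3, was at 123 to 206 CPM in adolescents and at 172 to 202 CPM in adults and did not pass (adjusted p = 0.9996). Part of the exons of Kcnj3, 31.1% of their length, overlaps a gene on the opposite strand, as do 24.2% for Gng3 and 22.1% for Adcy3. Whether reads were counted by strand is not stated in the labels.

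**Figure D3:**
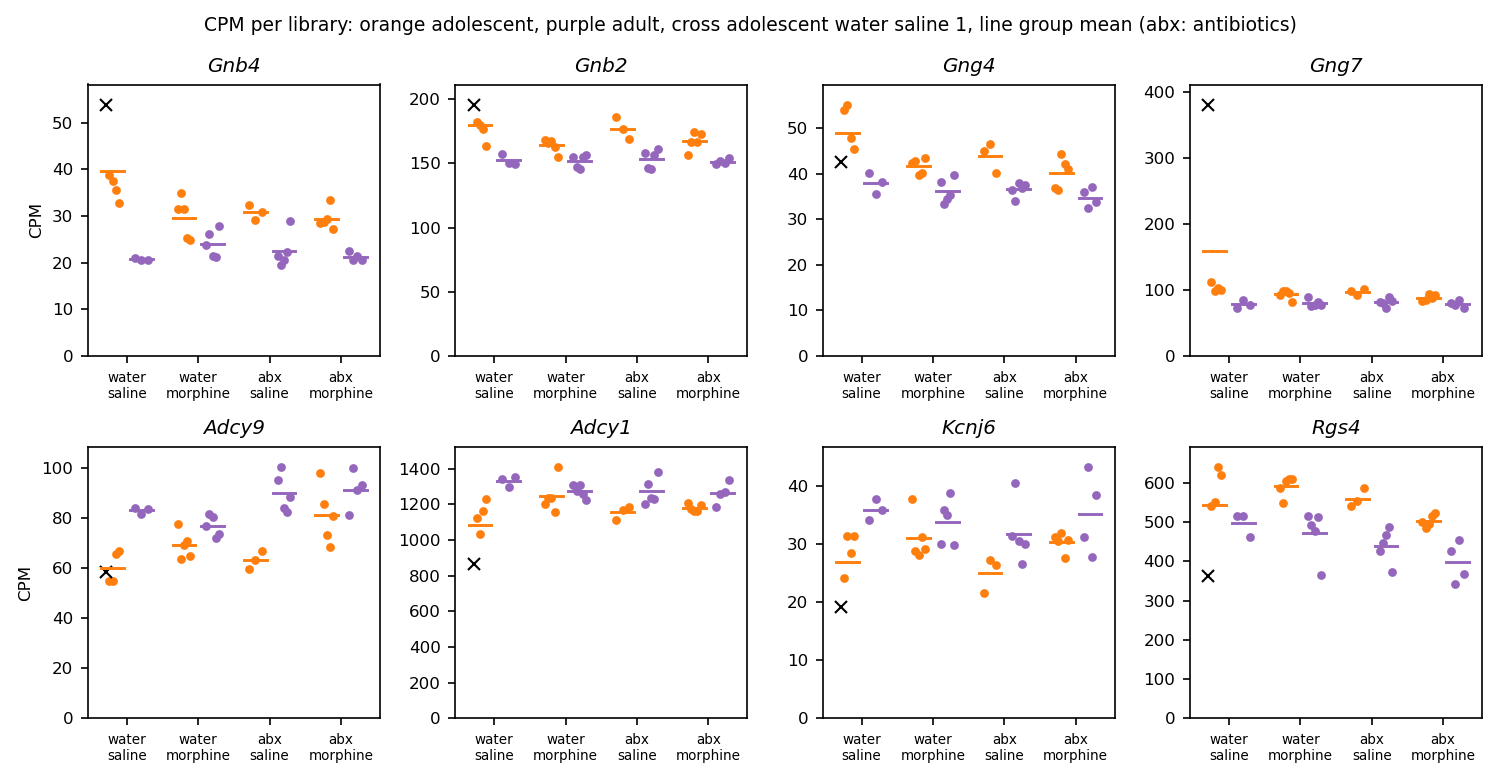
CPM of 8 members (vertical axes, from 0) in every library of the 4 treatments (horizontal axis), adolescents in orange and adults in purple, with a line at each group mean and a cross for adolescent water saline replicate 1. Gng7 is at 381 CPM in that library and at no more than 112 CPM in the other 34, while Gnb4 and Gng4 are mostly lower and Adcy9 mostly higher in adults.

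Markers of several cell types moved with age as well. Of 7 tested markers of immature neurons 5 were lower in adults, and the list summed to 572 to 750 CPM in adolescents and 452 to 561 CPM in adults, without overlap. Of 6 oligodendrocyte precursor markers 4 were lower (202 to 466 CPM and 161 to 228 CPM), and of 6 microglial markers 5 were lower (278 to 395 CPM and 244 to 337 CPM). Cortical excitatory markers were lower for 2 of 7, at summed levels of 4934 to 8858 CPM and 6472 to 8167 CPM. Without adolescent water saline replicate 1, striatal markers summed to 105 to 126 CPM in adolescents and 88.5 to 112 CPM in adults. Myelin markers then summed to 1245 to 6745 CPM (median 2792) and 1672 to 5976 CPM (median 1995). All markers of precursors, microglia, myelin and excitatory neurons had reads in every library. The immature neuron marker Igfbpl1 and the striatal markers Isl1 and Six3 were at 0 in some. Their part in the differences of the members was not tested. In bulk RNA, fewer cells of a type and less RNA per cell cannot be told apart.

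Within single treatments, fewer members passed. In mice on water with saline 8 members passed, where 3.39% of all genes did. Gnb4 was at 53.9, 38.7, 37.5, 35.5 and 32.8 CPM in the 5 adolescent libraries and at 21.0, 20.7 and 20.6 CPM in the 3 adult ones, so the groups did not overlap. Its log2 fold change was -0.94 (adjusted p = 0.000133), and -0.79 without replicate 1 of the adolescents (adjusted p = 8.61e-05). Gng7 at -1.03, Gng4 at -0.36, Gnb2 at -0.24 and Gnai2 at -0.23 were also lower, and without that library Gng7 was at -0.38 (adjusted p = 0.000782) while Gnai2 did not pass (-0.17, adjusted p = 0.0887). Adcy9 at 0.46, Adcy1 at 0.30 and Kcnj3 at 0.30 were higher, and Kcnj3 was at 0.20 without the library (adjusted p = 0.0278). Without the library 9 members passed, with Gnb1 at -0.15 and Gng3 at -0.22 added, against 4.56% of all genes. With the striatal and myelin scores as covariates Gnai2, Gng7, Adcy1 and Kcnj3 did not pass (adjusted p = 0.0756, 0.096, 0.0553 and 0.14). Only 3 adult libraries carry this comparison, and without replicate 1, 3 or 5 of the adults 4, 3 and 4 members passed, against 0.931%, 0.87% and 1.28% of all genes. In a fit of these 2 groups alone, 0 passed, against 0.0613% of all genes in that fit.

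Adcy9 in the same mice was at 58.6, 55.0, 55.1, 65.8 and 66.7 CPM in adolescents and at 84.1, 81.8 and 83.6 CPM in adults, again without overlap. On antibiotics with saline it was at 59.6, 63.5 and 67.1 CPM in adolescents and at 95.3, 100.6, 84.3, 82.5 and 88.7 CPM in adults (log2 fold change 0.51, adjusted p = 0.00132). Gnb2 was the other member past the threshold there, at -0.20 (adjusted p = 0.024), which makes 2 members against 1.39% of all genes. Leaving out replicate 1 or 2 of these adolescents, or replicate 2 or 3 of the adults, left 1 member, and leaving out adolescent water saline replicate 1 gave 7, against 3.39% of all genes in that fit.

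On antibiotics with morphine 1 member passed, against 1.87% of all genes. This was Gnb4, at 28.4, 28.6, 29.3, 33.5 and 27.2 CPM in adolescents and at 22.6, 20.5, 21.4 and 20.6 CPM in adults, without overlap (log2 fold change -0.46, adjusted p = 0.0354). The call was lost in 8 of the 35 fits that each left out 1 library, all of them libraries of these 2 groups. Without adolescent water saline replicate 1, 6 members passed, against 4.23% of all genes. On water with morphine 0 members passed edgeR's threshold, against 0.626% of all genes, with 6 members at an unadjusted p under 0.05 (11.8% of all genes). In the same mice DESeq2 called 0 and limma voom 6, against 2.32% and 3.39% of genes with an adjusted p. There Adcy9 was at 77.8, 63.8, 69.5, 71.0 and 65.1 CPM in adolescents and at 76.9, 81.9, 80.5, 72.3 and 73.6 CPM in adults, which overlap (log2 fold change 0.15, adjusted p = 0.44). Leaving out adolescent water saline replicate 1 gave 3 members, against 1.52% of all genes.

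**Figure D4:**
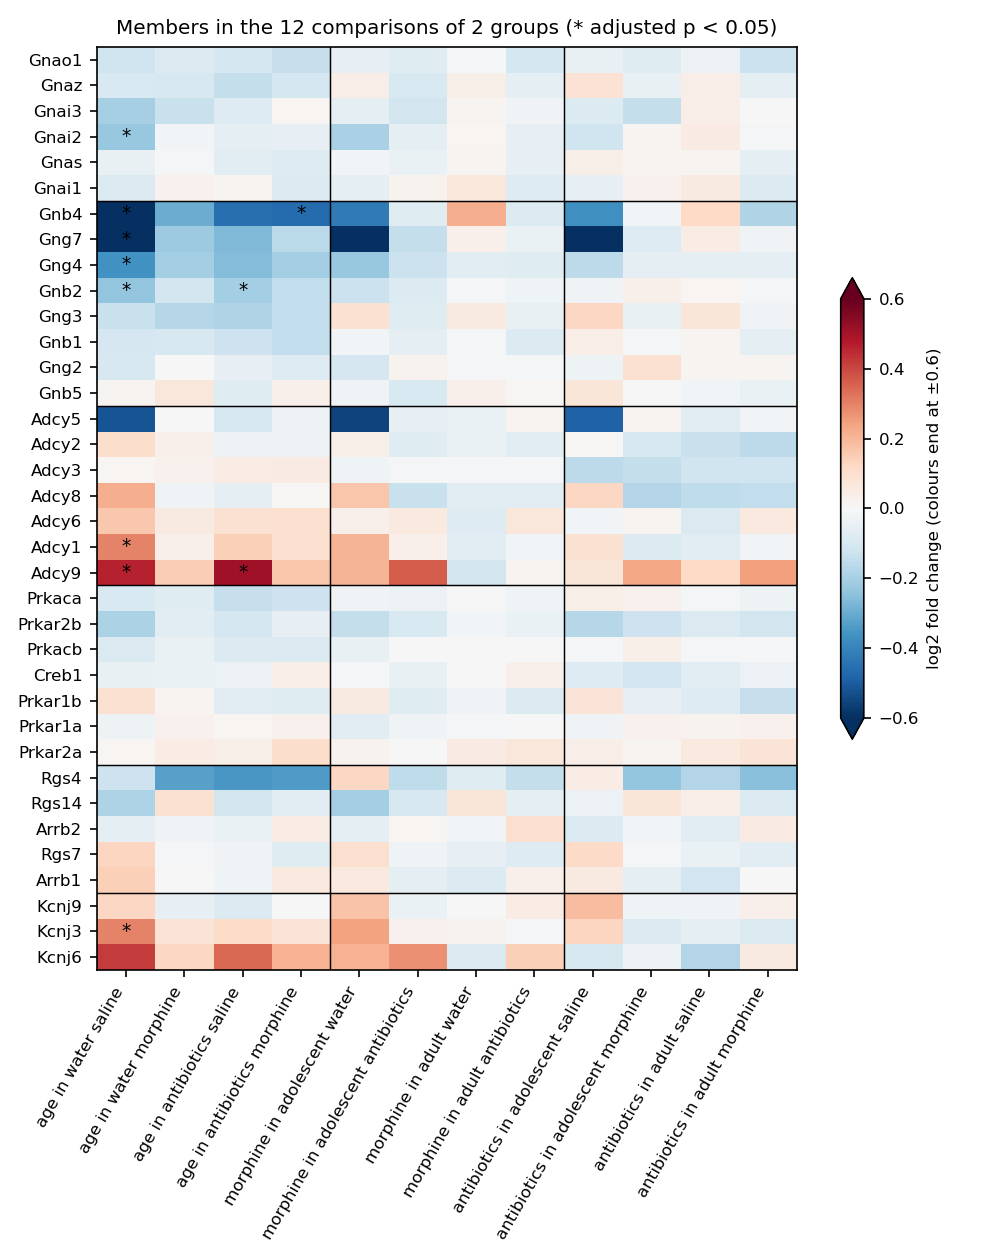
Log2 fold change of the 36 members (rows, by role) in the 12 comparisons of 2 groups (columns), red for higher and blue for lower, with colours ending at ±0.6 and stars for adjusted p under 0.05 in edgeR. The stars stand in the columns for age alone: 8, 2 and 1 of them, and 0 on water with morphine.

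Promoter sequence was looked at for the letters bound by CREB, because the kinase described here acts on that factor. RefSeq windows of the 250 bases before an annotated transcript start (build GRCm38.p6) were matched to 28 of the 36 members. A gene can have several such starts. The full cyclic AMP response element TGACGTCA, the same on both strands, was found for 1 of the 28 (3.57%), Prkar1a, and for 1.77% of 27025 genes with a window. Its 5-letter core TGACG, searched on both strands and contained in the full element, was found for 10 of 28 members (35.7%) and for 19.8% of all genes. Members had 48 windows for 28 genes, all genes 32851 windows for 27025, and the median GC content was 63.2% and 52.4%. The stretches shown are those of Prkar1a, whose level did not pass for age, and of 4 members that did, 1 higher and 3 lower. Letters run 5′ to 3′ on the gene's strand, and capitals mark the motif or 1 core in each stretch, written CGTCA where it lies on the other strand.
Prkar1a: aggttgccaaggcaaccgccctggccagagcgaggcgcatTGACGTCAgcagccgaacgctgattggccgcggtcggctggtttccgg
Adcy9: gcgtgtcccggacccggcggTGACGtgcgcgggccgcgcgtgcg
Gng4: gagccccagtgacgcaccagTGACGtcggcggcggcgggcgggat
Gnb1: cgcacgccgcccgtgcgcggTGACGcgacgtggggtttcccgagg
Rgs4: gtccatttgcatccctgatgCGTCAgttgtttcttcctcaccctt
The Prkar1a stretch is chr11:109650860-109650947 on the plus strand, with the motif starting 49 bases before the transcript start of 1 of its 6 windows. This start lies inside the gene, which begins at 109649405. The stretches of Gng4 (chr13:13784247-13784291) and Gnb1 (chr4:155491310-155491354) are on the plus strand, with the core in capitals 40 and 31 bases before a transcript start. For Gng4 this is the start of 1 of 2 windows and lies inside the gene, which begins at 13784059. The Gng4 stretch holds another core, in lower case, 51 bases before the same transcript start. Those of Adcy9 (chr16:4420499-4420542) and Rgs4 (chr1:169747759-169747803) are on the minus strand, with the core 24 and 141 bases before the start.

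Set against the age result, the core was present for 6 of 10 members with a window that were lower in adults (60%), 1 of 4 that were higher (25%) and 3 of 14 that did not pass (21.4%). These counts were not tested. A match is a description of these letters and not a binding site.

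Oral antibiotics were compared with water over the 4 combinations of age and injection. Of the 36 members 4 passed, 1 higher and 3 lower, where 10.2% of all genes passed and 15.9% of the 7557 genes at or above the level of Adcy8. The member that rose was Adcy9, at 55.0 to 84.1 CPM on water (median 71.7) and at 59.6 to 100.6 CPM on antibiotics (median 84.3). It rose by 0.17 on the log2 scale, with an SE of 0.04 (adjusted p = 0.00699). In adults with morphine, the antibiotic libraries were at 81.2, 100, 91.2 and 93.2 CPM and the water ones at 76.9, 81.9, 80.5, 72.3 and 73.6 CPM.

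The 3 members that fell with antibiotics were Adcy3, Prkar2b and Gnao1. Adcy3, a cyclase of neuronal primary cilia, was at 54.6 to 65.0 CPM on water (median 59.1) and at 42.2 to 61.9 CPM on antibiotics (median 54.4), and fell by 0.13 on the log2 scale, with an SE of 0.03 (adjusted p = 0.0105). Prkar2b was at 65.0 to 92 CPM on water (median 68) and at 57.7 to 72.9 CPM on antibiotics (median 63.0), and fell by 0.12 (adjusted p = 0.011). Gnao1 was at 658 to 759 CPM on water (median 701) and at 594 to 723 CPM on antibiotics (median 666), and fell by 0.07 (adjusted p = 0.0189). The groups overlapped for all 4 members.

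**Figure D5:**
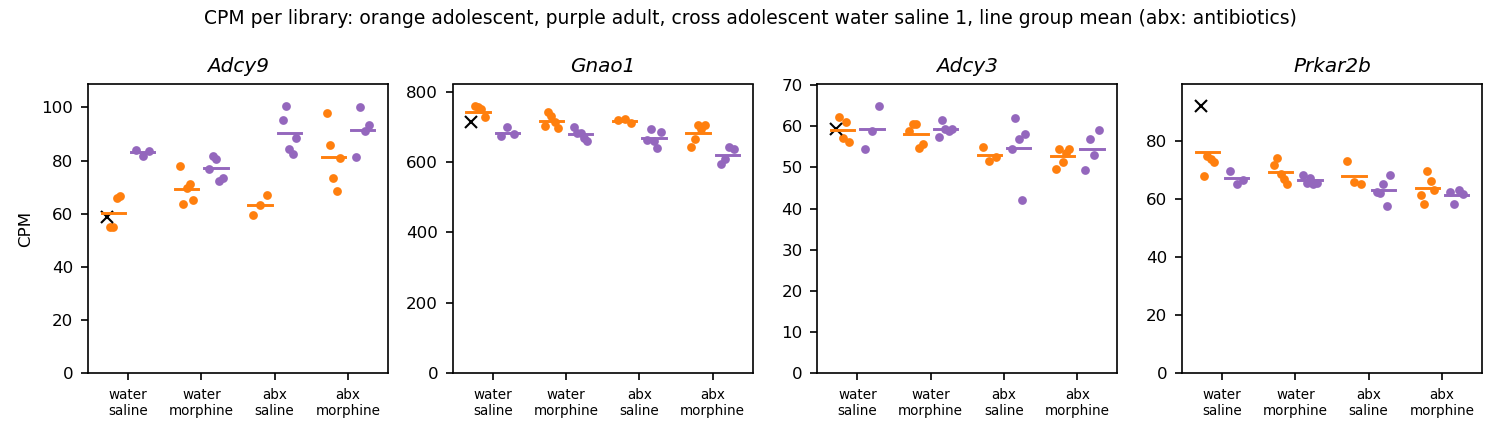
CPM (vertical axes, from 0) of the 4 members past the threshold for antibiotics against water, in every library of the 4 treatments (horizontal axis), adolescents in orange and adults in purple, with lines at group means and a cross for adolescent water saline replicate 1. Medians were 71.7 CPM on water and 84.3 CPM on antibiotics for Adcy9, and 701 and 666 CPM for Gnao1.

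The number of members that passed for antibiotics moved with 1 library. Without adolescent water saline replicate 1 it was 8, against 13% of all genes in that fit, with Adcy2 at -0.12, Rgs4 at -0.19, Gng4 at -0.10 and Prkar1b at -0.08 added (adjusted p = 0.000384, 0.00543, 0.0496 and 0.0357). Microglial and astrocyte markers moved with antibiotics too. Of 6 microglial markers 5 were lower, at summed levels of 285 to 395 CPM on water and 244 to 338 CPM on antibiotics, and of 6 astrocyte markers 3 were lower, at 3341 to 4240 CPM and 3232 to 3904 CPM. All 12 had reads in every library. Their part in the members' differences was not tested.

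In the 4 comparisons of antibiotics with water between 2 groups, 0 members passed in edgeR. The shares of all genes that passed were 0.0103% in adolescents with saline, 1.11% in adolescents with morphine, 0.031% in adults with saline and 1.92% in adults with morphine. At an unadjusted p under 0.05 there were 7, 4, 1 and 4 members, where 9.85%, 12.7%, 8.76% and 13.8% of all genes lay under it. DESeq2 called 0, 0, 0 and 1, and limma voom called 0, 0, 0 and 3. Of genes with an adjusted p, DESeq2 called 0.353%, 2.42%, 0.5% and 3.24%, and voom 0.0776%, 3.23%, 0.683% and 3.73%. Log2 fold changes of Adcy9 in the same order were 0.07, 0.23, 0.12 and 0.25, and those of Adcy3 were -0.16, -0.14, -0.12 and -0.12. Without adolescent water saline replicate 1, Gnao1 (-0.13, adjusted p = 0.0284) and Adcy2 (-0.16, adjusted p = 0.0337) passed in adults with morphine. Without adolescent antibiotics morphine replicate 4, Adcy9 passed in adolescents with morphine at 0.28 (adjusted p = 0.0497).

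Morphine against saline, averaged over age and drink, gave 0 members in edgeR, where 0.316% of all genes passed. At an unadjusted p under 0.05 there were 6 members, where 11% of all genes lay under it. DESeq2 called 1, Gnao1, and limma voom called 2, Gnao1 and Gng4, against 1.19% and 1.98% of genes with an adjusted p. Gng4 had the smallest adjusted p, at -0.12 on the log2 scale, with an SE of 0.04 (adjusted p = 0.12). It was at 33.9 to 55.1 CPM with saline (median 40.1) and at 32.4 to 44.4 CPM with morphine (median 38.2), which overlap. It passed when adolescent water saline replicate 1 was left out, at -0.14 (adjusted p = 0.0323).

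Between pairs of groups, morphine gave 0 members in each of the 4 comparisons in edgeR. All genes passed at 0.331% in adolescents on water, 0.0466% in adolescents on antibiotics, 0% in adults on water and 0% in adults on antibiotics. Members at an unadjusted p under 0.05 numbered 11, 1, 0 and 1, where 11.6%, 7.57%, 2.89% and 7.88% of all genes lay under it. DESeq2 called 1, 1, 0 and 0, and limma voom 0, 1, 0 and 0. Of genes with an adjusted p, DESeq2 called 0.941%, 0.292%, 0% and 0.141%, and voom 0.0569%, 0.657%, 0.00517% and 0.0103%. Gnb4 came nearest in adolescents on water, at 31.5, 34.9, 31.4, 25.4 and 24.8 CPM with morphine, where the saline libraries given above were at 32.8 to 53.9 CPM. The difference was -0.42 on the log2 scale, with an SE of 0.11 (adjusted p = 0.0775). The groups overlap by 1 morphine library.

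That comparison shifted with single libraries. Without adolescent water saline replicate 5 there were 5 members past the threshold, against 1.36% of all genes in that fit, with Gnb4 at -0.49, Gnai2 at -0.22 and Gnb2 at -0.16 lower and Kcnj3 at 0.31 and Adcy1 at 0.26 higher. Without adolescent water saline replicate 4 there were 2 (1.18% of all genes), and without adolescent water morphine replicate 2 or adult antibiotics saline replicate 5 there was 1 (0.446% and 0.394%), while leaving out adolescent water saline replicate 1 gave 0. In adolescents on antibiotics, Adcy9 was at 98.0, 85.8, 73.4, 68.5 and 80.9 CPM with morphine and at 59.6, 63.5 and 67.1 CPM with saline. These groups did not overlap, yet the log2 fold change of 0.36 (SE 0.09, adjusted p = 0.13) did not pass in edgeR. It passed in DESeq2 (0.36, adjusted p = 0.0291) and in limma voom (adjusted p = 0.0298), and without adolescent antibiotics morphine replicate 4 (0.42, adjusted p = 0.0402).

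Whether effects differed between groups was tested by 5 interactions, in which 0 members passed in edgeR, DESeq2 and limma voom. Of all genes 0.00517% passed for age by morphine, 0% for age by antibiotics, 0.00517% for antibiotics by morphine, 0.0621% for the same in adolescents and 0.00517% for the same in adults. Members at an unadjusted p under 0.05 numbered 3, 0, 0, 2 and 0, where 6.32%, 4.91%, 5.38%, 6.51% and 3.8% of all genes lay under it. The smallest p among the members was that of Adcy9 for age by morphine, a difference of -0.33 on the log2 scale (SE 0.08, adjusted p = 0.42 in edgeR). A difference of the morphine effect between ages was therefore not shown for any member.

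Other genes of the pathway were listed in 11 lists of 94 genes, of which 90 were tested. For age, 10 were higher in adults and 13 lower, which is 25.6% of the 90 against 20.3% of all genes. The median log2 fold change of the 90 was -0.01. They were not matched by level to all genes, and the lists were chosen with earlier results of these data known. Other beta and gamma subunits were lower in 2 of 6, Gng13 at -0.35 and Gng12 at -0.25, and other alpha subunits in 3 of 7, Gna11 at -0.09, Gna12 at -0.32 and Gna15 at -0.35. With the striatal and myelin scores as covariates Gna12 was at -0.15 and Gng12 at -0.15, both past the threshold. No gene of either list was higher. Of 17 phosphodiesterases, which break down cyclic nucleotides, 2 were higher, Pde4c at 0.41 and Pde8b at 0.12. Of 7 CREB relatives and coactivators 3 were higher, the acetyltransferase genes Ep300 at 0.13 and Crebbp at 0.16, and Crtc2 at 0.14. Crtc2 lay near the threshold (adjusted p = 0.0487), and passed in 12 of the 35 fits without 1 library and in 6 of 8 other alternatives.

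Of 7 other targets of cyclic AMP 3 were higher, among them the exchange factor Rapgef3 at 0.14, and 2 were lower, the cyclic nucleotide-gated channels Hcn3 at -0.26 and Hcn4 at -0.39. Among 12 anchors and inhibitors of protein kinase A 2 were higher, among them the anchor Akap6 at 0.08, and 2 were lower, the inhibitors Pkig at -0.15 and Pkia at -0.09. Pkia passed in 27 of the 35 fits without 1 library and in 7 of 8 other alternatives, and Akap6 in 35 and in 6. Rgs12 at -0.23 and Rgs5 at -0.19, 2 of 14 other RGS genes, were lower, as were the receptor kinase Grk5 at -0.20 (1 of 5) and the chaperone of alpha subunits Ric8a at -0.11 (1 of 7 G protein modulators). Rgs5 is also a pericyte marker. Of 3 other cyclases and 5 other channel genes 0 passed.

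For antibiotics, 3 of the 90 were higher and 7 lower, which is 11.1% of them against 10.2% of all genes. The receptor kinase Grk3 was at 102 to 132 CPM on water (median 112) and at 112 to 161 CPM on antibiotics (median 129), with a log2 fold change of 0.21 (adjusted p = 0.00015). It also passed in mice with morphine of both ages, at 0.25 in adolescents and 0.27 in adults (adjusted p = 0.0493 and 0.0305). These calls for Grk3 held in 16 and 30 of the 35 fits without 1 library. Each held in 7 of 9 other alternatives, and both failed with all 37 libraries. Akap5, an anchor of protein kinase A at synapses, was at 91.9 to 130 CPM on water and at 78.3 to 110 CPM on antibiotics (log2 fold change -0.26, adjusted p = 0.00012). Gna11 at 0.10 and Gpsm1 at 0.11 were higher, and Gngt2 at -0.39, Grk5 at -0.30, Hcn3 at -0.26, Gng5 at -0.23, Gnal at -0.15 and Rgs20 at -0.12 were lower. The call held in 9 of the 35 fits without 1 library for Gnal, in 23 for Rgs20 and in 32 for Gngt2. Of 8 other alternatives, it held in 5 for Gnal, 5 for Rgs20 and 7 for Gngt2.

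For morphine averaged over the groups, 0 of the 90 passed in edgeR. In adolescents on water, Gnal, the alpha subunit of striatal and olfactory neurons, was lower with morphine (log2 fold change -0.43, adjusted p = 0.0223). The saline libraries were at 255, 165, 181, 161 and 154 CPM and the morphine ones at 150, 144, 136, 143 and 111 CPM, without overlap. The value of 255 CPM is that of adolescent water saline replicate 1, in which the striatal markers were high. Leaving this library out gave -0.27 for Gnal (adjusted p = 0.0405). Gnal did not pass with the striatal and myelin scores as covariates (-0.19, adjusted p = 0.32), nor in limma voom, without a filter or with the compared groups alone, and it passed in 31 of 35 fits without 1 library. For antibiotics, Gnal did not pass with the scores either (-0.08, adjusted p = 0.0654).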

How the data were processed

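The deposited table holds whole-number counts of reads per gene for 37 libraries. Per the submitters' processing notes, the authors used STAR 2.7.10a, DESeq2 and the mouse genome build mm10; columns are named as in STAR's gene count output. Per the labels' protocols, RNA was purified on RNeasy Mini columns, and a Fast RNA-seq kit from ABclonal served for the libraries. Neither the annotation release nor the strand setting is given by the sources used here. Symbols came from a GENCODE M21 table, which gave a symbol for 52073 of 56980 identifiers, and 52036 identifiers carried a higher version number than in that table.

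The 2 libraries with totals under 1000000 counts were left out. Counts of the other 35 were scaled by edgeR's TMM method, filtered with filterByExpr over the 8 groups, and fitted with edgeR 4.0.16 (R 4.3.3) as 8 group means, with the robust quasi-likelihood test and Benjamini-Hochberg adjustment over 19332 genes at a threshold of 0.05. All groups shared 1 fit, and 20 contrasts were tested: 3 averaged effects, 12 between 2 groups and 5 interactions. CPM values use TMM-scaled library sizes. Alternatives were DESeq2 1.42.0, limma 3.58.1 (voom with sample weights), DESeq2 size factors, all 37 libraries, no filter, the compared groups alone, a replicate block, marker scores or an islet read term as covariates, and each library left out in turn. Promoter windows came from RefSeq.

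The text gives values for up to 4 members a role with the smallest adjusted p for age and for each member past the threshold for antibiotics, morphine or an interaction, and the other members by ranges and counts. Of each list of other pathway genes up to 3 with the smallest adjusted p for age are named, with any that passed in another comparison. The members and the lists were chosen with earlier results of these data known.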

Additional observations from a re-analysis of the deposited data

Results flagged for a closer look

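In groups of 4 or 5 libraries, 18 of 216 pairs of a member and a group had 1 library far from the others (Dixon's test at the 95% critical value). Chance flags about 1 in 20 groups, and libraries are shared by all genes, so the flags are not independent. Of the 18, 12 were in adolescent water saline replicate 1. In this library Gng7 was at 381 CPM where the others of its group were at 98.3 to 112 CPM, Adcy5 at 453 CPM (others 171 to 188), Gnb4 at 53.9 CPM (others 32.8 to 38.7) and Prkar2b at 92 CPM (others 67.8 to 74.8). It was below the others for Gnas at 992 CPM (1265 to 1327), Prkar1b at 647 CPM (1058 to 1140), Gnb1 at 579 CPM (707 to 748), Prkacb at 564 CPM (637 to 664) and Gng3 at 157 CPM (230 to 235). The same held for Adcy2 at 130 CPM (182 to 192), Kcnj9 at 123 CPM (174 to 192) and Rgs7 at 62.9 CPM (86.4 to 94.8).

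The other 6 flags were spread over 5 libraries. Rgs14 was at 50.8 CPM in adolescent water saline replicate 3 (others 39.1 to 42.4). Prkacb was at 537 CPM in adolescent water morphine replicate 5 (others 631 to 647). Adcy2 was at 163 CPM in adolescent antibiotics morphine replicate 1 (others 166 to 167). Gnas was at 1270 CPM in adult water morphine replicate 1 (others 1175 to 1196). In adult water morphine replicate 5, Rgs4 was at 367 CPM (others 478 to 517) and Kcnj3 at 146 CPM (others 163 to 167).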

How the results depend on the processing

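No member past a threshold changed direction under any alternative run. Of members that did not pass for age, Gnb5, Adcy2, Adcy5, Prkar1a, Prkar1b, Creb1, Rgs7 and Kcnj9 changed sign in some fits, and Kcnj9 kept its sign in 27 of 44. Members past the threshold for age averaged over treatments numbered 16 to 20 under the 8 alternatives and 15 to 19 when each library was left out. Of the 18, 13 passed in every such fit. Over all genes with an adjusted p, the 8 alternatives called 7.28% to 30.5%. Percentages in brackets below are such shares. Gnai2 failed with all 37 libraries and with marker scores. Prkacb failed with all 37 libraries, DESeq2 size factors, the replicate block and the islet term. Prkar2b failed with marker scores and the islet term, and Adcy6 and Kcnj3 failed without a filter. For antibiotics averaged, Gnao1 failed with all 37 libraries and without a filter, DESeq2 called 5 members (12.3%) and limma voom 7 (16.8%). For age on water with saline, the compared groups alone gave 0 (0.0613%) and voom 16 (9.87%). For age on water with morphine, voom gave 6 (3.39%) and the marker scores 2 (3.18%). For age on antibiotics with saline, all 37 libraries gave 1 (0.811%), DESeq2 4 (4.23%), voom 10 (6.8%) and the scores 9 (5.72%). For age on antibiotics with morphine, DESeq2 gave 4 (3.84%), no filter 0 (0.611%) and the compared groups alone 2 (2.75%). There voom gave 6 (4.64%), the scores 7 (7.4%) and the islet term 0 (1.43%). DESeq2 gave 1 for morphine averaged (1.19%), morphine in adolescents on water (0.941%) and on antibiotics (0.292%), and antibiotics in adults with morphine (3.24%). In the same order voom gave 2, 0, 1 and 3 (1.98%, 0.0569%, 0.657% and 3.73%). The compared groups alone gave 1 for antibiotics in adolescents with morphine (2.15%), and the scores gave 2 for antibiotics in adults with morphine (3.9%). The cause of these moves was not tested. Leaving out each library gave 0 to 1 for morphine averaged, 4 to 8 for antibiotics averaged, and for age 3 to 9 on water with saline, 0 to 3 on water with morphine, 1 to 7 on antibiotics with saline and 0 to 6 on antibiotics with morphine. It gave 0 to 5 and 0 to 1 for morphine in adolescents on water and on antibiotics, 0 to 1 and 0 to 2 for antibiotics in adolescents and adults with morphine, and 0 in the other 9 comparisons. The highest counts came without adolescent water saline replicate 1, except for morphine in adolescents on water (replicate 5 of adolescent water saline) and the ranges of 0 to 1 within adolescents (adolescent antibiotics morphine replicate 4). For age on antibiotics with morphine, 2 members passed without adolescent water morphine replicate 5 or adult antibiotics saline replicate 2, 3 without adolescent antibiotics morphine replicate 1, and 0 without its replicates 2, 3, 4 or 5 or adult antibiotics morphine replicates 1, 2 or 5. The replicate block gave 17 members for age averaged (20%) and 4 for antibiotics averaged (9.27%). For age it gave 7 on water with saline (3.53%), 2 on antibiotics with saline (1.81%) and 1 on antibiotics with morphine (1.48%). In the other comparisons it gave 0. The labels give the numbers no shared animal, litter or day, and deviations of same-numbered libraries correlated at a median of 0.05 over 108 pairs (-0.45 to 0.64), against 0.01 over 425 other pairs, so the numbers were not taken to pair libraries. Groups of 3 to 5 libraries limit comparisons of 2 groups, and the lowest member, Adcy8, had a mean of 22.1 CPM.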
